A study of Mus musculus with 6 samples.

Results

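Malat1, Neat1, Miat, Meg3, Rian, Mirg, Kcnq1ot1, Peg13 and Snhg11 are long RNAs that mostly stay in the nucleus, arise from imprinted loci, or both. They were chosen by name, as the rows of the count table with these 9 symbols, and all 9 were present among 24054 genes and passed the filter on low counts, which left 14568 genes. They were measured by RNA-seq of poly(A)-selected RNA from the substantia nigra (SN) of 3 MitoParks and 3 littermate controls, untreated and on a C57BL/6 background. MitoParks (Dat+/Cre: TFAM LoxP/LoxP) lose Tfam, which encodes a factor that transcribes and packs mitochondrial DNA, wherever the dopamine transporter gene drives Cre, and littermate controls (TFAM+/LoxP: Dat+/+), which came from MitoPark or parental strain litters, carry 1 floxed allele and no Cre. The series' design text gives an age of 16 to 17 weeks, and the labels give the tissue only as brain. Cre is confined to dopamine transporter cells, while each library was made from all cells of the dissected SN.

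Long noncoding RNAs of this kind work as RNA. Malat1 gathers in nuclear speckles, where splicing factors are stored, Neat1 is the scaffold of paraspeckles, and Miat forms foci of its own in the nuclei of neurons. Imprinted genes are transcribed from 1 parental allele: Meg3, Rian and Mirg come from the maternal copy of the Dlk1-Dio3 locus and are abundant in neurons, while Kcnq1ot1 and Peg13 come from the paternal copy, and Kcnq1ot1 silences coding genes around it in cis. Snhg11 is a host of small nucleolar RNAs and is enriched in neurons.

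The total expected counts per mouse ranged from 8140777 to 10528602. Levels are given as CPM, counts divided by the TMM-scaled library size. Littermate controls 1, 2 and 3 had 40.3, 44.4 and 45.5 CPM of Tfam, the deleted gene, and MitoParks 1, 2 and 3 had 32.7, 33.1 and 33.2 CPM, a log2 fold change of -0.40 ± 0.11 (SE; edgeR quasi-likelihood adjusted p = 0.999) without overlap of the groups. The summed level of 13 dopamine neuron markers was 571, 676 and 1773 CPM in littermate controls 1, 2 and 3. In MitoParks 1, 2 and 3 it was 368, 704 and 679 CPM. Littermate controls 1 and 2 thus lay within the range of the MitoParks, and littermate control 3 stood above it. All 13 markers had a log2 fold change below 0, with a median of -0.67, and 2 were called by the rule given further on. Slc6a3, the dopamine transporter gene, had 72.6, 65.3 and 383 CPM in the controls against 13.3, 51.1 and 40.9 CPM in the MitoParks, without overlap. Its log2 fold change was -2.30 ± 0.70 (SE) and -0.97 without littermate control 3, and it missed the p cutoff with robust dispersion. MitoParks are Dat+/Cre and controls Dat+/+, so for Slc6a3 the genotype at its own locus and a loss of dopamine neurons cannot be told apart. Foxa1, a transcription factor gene of these neurons, had -0.84 ± 0.37 (SE), with overlap of the groups. It was not called without either of littermate controls 2 and 3 or MitoParks 1 and 3, at -0.53 without littermate control 3. With all 6 mice, Foxa1 missed the p cutoff under upper quartile scaling, a filter at a mean CPM of 5, limma-voom and robust dispersion. The sum of 9 neuron markers lay between 5742 and 7610.5 CPM in the 6 mice. MitoPark 3 stood apart from the other mice. Its Rn45s, the entry of the ribosomal RNA precursor, was at 9031 CPM against 1276 to 4542 CPM elsewhere, and its 10 most counted genes took 5.19% of its counts against 3.19% to 4.16% elsewhere. Xist, the RNA that coats the inactive X chromosome, was at 1.56 CPM in littermate control 1 and 2.12 CPM in MitoPark 2 against 830.1 to 1189 CPM in the other 4 mice, and the labels give no sex. Rn45s and Xist were picked out after their values were seen.

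The annotation places the RNAs at 6 loci of the mouse genome (GENCODE M21, GRCm38.p6). Malat1 and Neat1 lie 22.0 kb apart on the minus strand of chromosome 19. Malat1 is at chr19:5795690-5802672 and Neat1 at chr19:5824708-5845478, and the longest transcript of each is 1 exon, of 6983 and 20771 bases. Meg3 (chr12:109541001-109571726), Rian (chr12:109603940-109661716) and Mirg (chr12:109729764-109749460) follow each other on the plus strand with gaps of 32.2 and 68.0 kb. The Rian gene holds 13 small nucleolar RNA genes on its own strand, and the Mirg gene holds 14 miRNA hairpins. Kcnq1ot1 (chr7:143203458-143296549) is a transcript of 1 exon and 93092 bases inside Kcnq1, on the opposite strand. Peg13 (chr15:72805600-72810324) lies within an intron of Trappc9 on the same strand, Miat is at chr5:112213228-112229395, and Snhg11 (chr2:158375638-158386145), annotated there as protein coding, holds 2 small nucleolar RNA genes.

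How each RNA ends bears on what oligo-dT beads can capture, so the 3′ ends of the speckle and paraspeckle RNAs are shown, from the GENCODE M21 transcripts (GRCm38.p6, minus strand of chromosome 19). Neat1-202, of 3004 bases, is the short form, and Neat1-201 is the long form on which paraspeckles are built. Capitals mark the poly(A) signal AATAAA in the last 60 bases, with no such letters in the long form.
Neat1-202, chr19:5842307-5842366: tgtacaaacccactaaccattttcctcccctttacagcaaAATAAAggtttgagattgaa
Neat1-201, chr19:5824708-5824767: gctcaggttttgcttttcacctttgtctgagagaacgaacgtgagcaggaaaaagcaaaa
Malat1-201, chr19:5795690-5795749: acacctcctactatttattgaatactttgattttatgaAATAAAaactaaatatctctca
Mature Malat1 is known to be cut upstream of this annotated end, after an A-rich stretch encoded in the genome that protects it in place of a poly(A) tail. Its longest run of A, in capitals, ends 298 bases before the annotated end.
Malat1-201, chr19:5795964-5796023: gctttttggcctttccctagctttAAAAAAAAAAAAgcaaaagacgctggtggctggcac
Kcnq1ot1 has 8 runs of at least 12 A inside its transcript, and its longest, of 41 A in capitals, stands 23487 bases before the 3′ end.
Kcnq1ot1-201, chr7:143226930-143227001: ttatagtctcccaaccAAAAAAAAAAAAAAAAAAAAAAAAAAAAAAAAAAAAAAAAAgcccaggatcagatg
Meg3 has 3 such runs, Rian and Malat1 1 each, and Neat1, Miat, Mirg, Snhg11 and Peg13 none. Whether such runs contributed to the counts was not tested. Of 20 genes in the table listed as lacking a poly(A) tail (histone genes, Rmrp, Rpph1, Terc and others) none passed the filter. Their summed counts were between 9.95 and 25.9 per mouse. Others on that list, such as Rn7sk and Rny1, had no entry in the table. Rn45s, which was not on the list, had from 10465 counts in MitoPark 1 to 79651 in MitoPark 3. How far RNA without a tail was left out of the libraries was not tested.

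By counts, Meg3 was the most counted gene of all in 4 of the 6 mice and ranked no lower than 3 in the others. Levels of different RNAs can be set side by side only per length, here as CPM per kilobase of the longest annotated transcript, and the isoforms that the authors' transcript set held are not given in the sources used here. On that scale Snhg11 averaged 476 ± 102 CPM per kb and Meg3 456 ± 107 CPM per kb (SD, n = 6 mice). Their ranges over mice overlapped, while inside each library Snhg11 was above Meg3, in 6 of 6 mice. That order rests on the lengths used, 5864 bases for Snhg11 and 14548 bases for Meg3. Meg3 has 11 annotated transcripts, and a shorter one would raise its value, so which of these RNAs is higher was not settled. Malat1 followed at 287 ± 185 CPM per kb, then Rian at 117 ± 10.05, Peg13 at 88.8 ± 8.67 and Miat at 38.4 ± 9.02 CPM per kb. Malat1 overlapped both Meg3 and Rian in its range over mice. Neat1 was at 12.6 ± 5.38 CPM per kb over its long form, and at 87.1 CPM per kb if every count is divided by its short form instead, so its place depends on the isoform. Mirg at 6.00 ± 0.867 and Kcnq1ot1 at 5.97 ± 3.19 CPM per kb were lowest, with Mirg the higher in 5 of 6 mice and Kcnq1ot1 in MitoPark 3.

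The comparison of MitoParks with littermate controls asks whether any of these RNAs changed with the loss of Tfam in dopamine transporter cells. None of the 9 did so by the test used. Genes were called at an unadjusted edgeR quasi-likelihood p below 0.05 and a fold change above 1.5. By that rule 84 of the 14568 genes tested, 0.577%, were called and 0 of the 9 RNAs. At the p alone the counts were 1.11% of all genes and 0 of the 9. The 3 MitoParks lay wholly above or below the 3 littermate controls in 4.71% of all genes and in 0 of the 9 RNAs. Adjusted p-values were no smaller than 0.999 for any gene, these RNAs included. Among the 9, 7 of the log2 fold changes were above 0 and the median over the 9 was 0.20, against -0.0047 over all genes, but 6 of the 9 changed sign when MitoPark 3 was left out of the fit. In whole tissue, fewer cells of a type and less RNA per cell cannot be told apart.

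**Figure D1:**
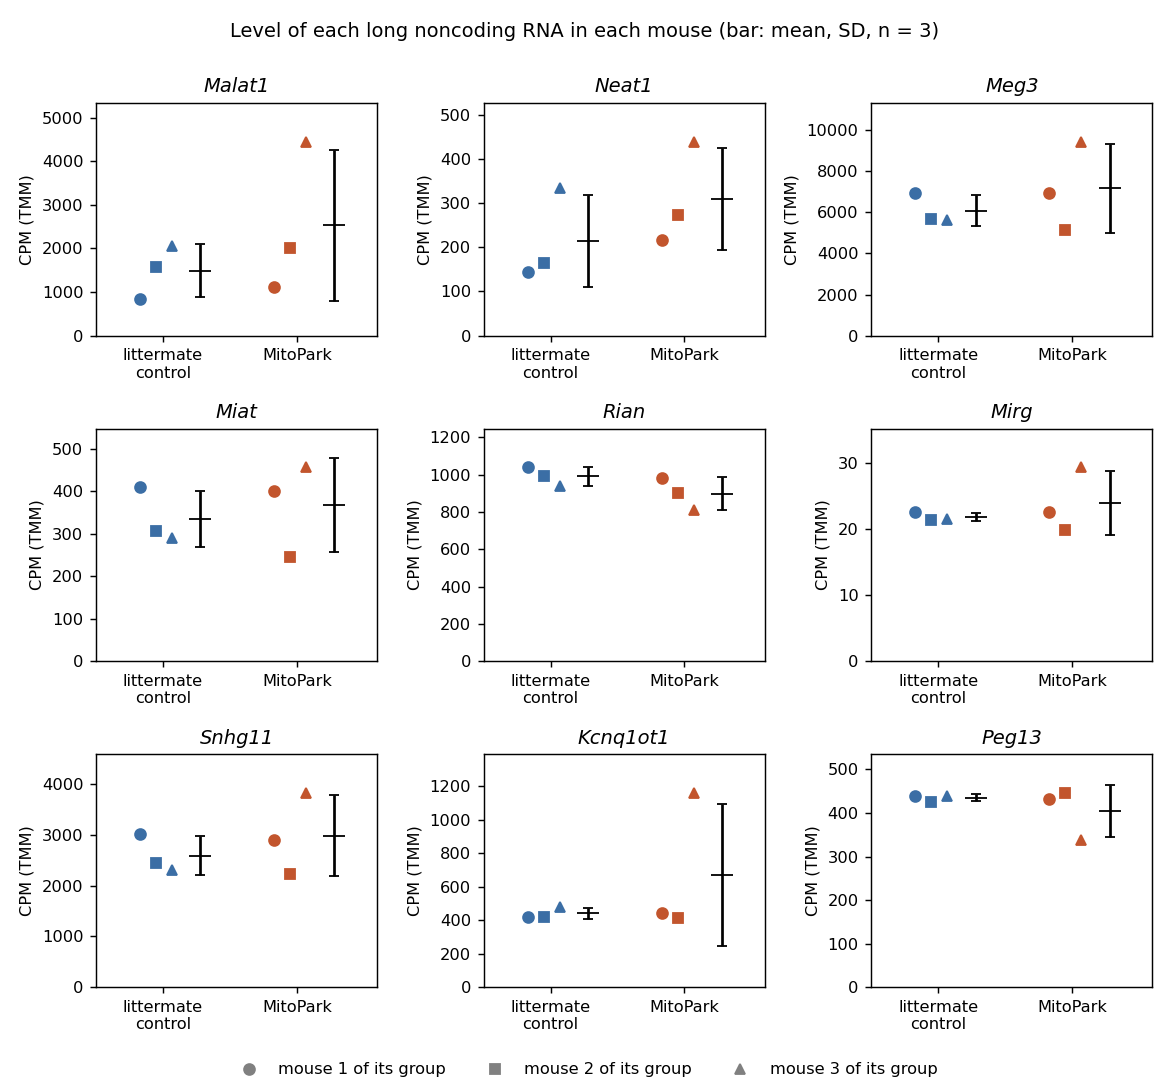
TMM-normalized CPM of each RNA (y axes, linear and starting at 0) in the 3 littermate controls and 3 MitoParks (x axis), 1 symbol per mouse, with the group mean and SD beside them. MitoPark 3 (triangle) was the highest mouse for Malat1, Neat1, Meg3, Miat, Mirg, Snhg11 and Kcnq1ot1 and the lowest for Rian and Peg13, and in no panel did the groups separate.

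Malat1, the RNA of speckles, varied most of the 9 between mice of 1 group. Littermate controls 1, 2 and 3 had 844.5, 1568 and 2046 CPM of Malat1, and MitoParks 1, 2 and 3 had 1111, 2018 and 4449 CPM. MitoPark 3 was above every other mouse, and the other 2 MitoParks lay within the range of the controls. The log2 fold change was 0.77 ± 0.46 (SE; 95% interval -0.27 to 1.80 in edgeR; exact permutation p = 0.5), and it was 0.074 without MitoPark 3. Leaving out MitoPark 1 gave 1.13 and leaving out littermate control 3 gave 1.07, both past the cutoffs, so the call rests on which mice are in the fit. Its pooled within-group SD on the log2 scale, 0.85, was larger than that of 99.6% of the 10440 genes with a mean of 10 CPM or more, whose median was 0.16. Counting error was no more than 1.15% of any Malat1 count.

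For Neat1 the levels were 145, 163 and 335 CPM in littermate controls 1, 2 and 3, with MitoParks 1, 2 and 3 at 216, 273 and 439 CPM. Littermate control 3 lay above MitoParks 1 and 2, and the groups overlapped. Between groups its log2 fold change was 0.53 ± 0.34 (SE; 95% interval -0.23 to 1.29; exact permutation p = 0.3), 0.19 without MitoPark 3, and 1.01 and past the cutoffs without littermate control 3. Its within-group SD of 0.59 was above that of 98.6% of those genes. Inside 1 library, where the scaling cancels, there were between 0.0986 Neat1 counts per Malat1 count in MitoPark 3 and 0.194 in MitoPark 1.

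Of 18 paraspeckle proteins, all tested, 0 were called, 12 had a log2 fold change above 0 and their median was 0.052. Rbm3, a cold-inducible RNA-binding protein, had the highest at 0.37 ± 0.32 (SE) and was at 110.7 CPM in MitoPark 3 and 87.6 CPM in littermate control 3 against 44.7 to 72.2 CPM in the other mice. Without littermate control 3 its log2 fold change was 0.75, past the cutoffs. Hnrnpa1, a splicing regulator, had the lowest at -0.28 ± 0.15 (SE). It had 243, 256 and 279 CPM in the controls against 237, 168 and 237 CPM in the MitoParks. It was the 1 of the 18 without overlap of the groups, against 4.71% of all genes tested. Of 19 nuclear speckle and splicing proteins 0 were called and the median was 0.061, with extremes at Srsf11 (0.21 ± 0.13, SE) and Srsf7 (-0.094 ± 0.13), both of the SR family of splicing factors.

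Of the maternally expressed RNAs of chromosome 12, Meg3 and Mirg had like patterns over the mice, while Rian differed from both in MitoPark 3. Littermate controls 1, 2 and 3 had 6945, 5699.5 and 5618 CPM of Meg3, and the MitoParks, in the same order, 6928, 5151 and 9443 CPM. MitoParks held both the highest and the lowest mouse. Its log2 fold change was 0.24 ± 0.22 (SE; 95% interval -0.25 to 0.72; exact permutation p = 0.7) and became -0.012 without MitoPark 3.

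Rian, the host of many box C/D small nucleolar RNAs, had levels of 1038, 994 and 937 CPM in the 3 controls, with the MitoParks at 984, 901 and 809 CPM. MitoPark 1 lay between littermate controls 2 and 3, so the groups overlapped, and the whole range over 6 mice was 1.28-fold. Its log2 fold change of -0.14 ± 0.12 (SE; 95% interval -0.41 to 0.13; exact permutation p = 0.2) was below 0 in every fit that left out 1 mouse, from -0.20 to -0.071. Its within-group SD of 0.11 was smaller than that of most genes, 24.1% of which had a smaller one.

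Mirg, the precursor of a miRNA cluster, was the least counted of the 9, with 186 to 259 counts per mouse and a counting error of 6.21% to 7.33%. The controls had 22.6, 21.4 and 21.6 CPM of it, and the MitoParks 22.7, 19.9 and 29.4 CPM. MitoPark 3 was high and MitoPark 2 low, with the controls between them. The difference was 0.13 ± 0.16 on the log2 scale (SE; 95% interval -0.22 to 0.48; exact permutation p = 0.7), and -0.039 without MitoPark 3. The counts were of the host transcript, and mature miRNAs and small nucleolar RNAs were not measured.

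Inside the library of MitoPark 3 there were 0.0857 Rian counts per Meg3 count, against 0.142 to 0.175 in the other 5 mice. For Mirg the ratio to Meg3 in MitoPark 3, 0.00311, lay close to the range of the others, 0.00326 to 0.00387. In MitoPark 3, then, Rian was low where both of its neighbours were high. The coding neighbours on the paternal allele were Dlk1, which encodes a membrane protein related to Notch ligands, with a log2 fold change of -0.027 ± 0.20 (SE), and Rtl1, a retrotransposon-derived gene, with 0.19 ± 0.24 (SE).

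Over all 6 mice, Snhg11 and Miat went with Meg3 rather than with the speckle RNAs. Littermate controls 1, 2 and 3 had 3023, 2452 and 2308 CPM of Snhg11, and the MitoParks 2909, 2229 and 3825 CPM. As with Meg3, MitoPark 3 was highest and MitoPark 2 lowest. The groups differed by a log2 fold change of 0.20 ± 0.20 (SE; 95% interval -0.25 to 0.66; exact permutation p = 0.7), which became -0.014 without MitoPark 3. Of Miat the controls had 409.9, 306 and 290.0 CPM and the MitoParks 402, 245 and 456 CPM, the same order of mice. Its log2 fold change was 0.13 ± 0.22 (SE; 95% interval -0.37 to 0.64; exact permutation p = 0.9) and -0.052 without MitoPark 3. Inside each library the counts of Snhg11 per count of Meg3 stayed between 0.405 and 0.435 in all 6 mice, although the genes lie on different chromosomes. The ratio was chosen after the values were seen.

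Kcnq1ot1 separated MitoPark 3 from all other mice. The controls had 418, 422 and 481 CPM of it, and the MitoParks 442, 412 and 1159 CPM. MitoParks 1 and 2 lay within or below the range of the controls, while MitoPark 3 was at 2.66 times the mean of the other 5. Only 5 of 10440 genes with a mean of 10 CPM or more had a higher ratio in that mouse, and for Malat1, at 2.93 times, only 3 had. Over all 6 mice the log2 fold change was 0.61 ± 0.35 (SE; 95% interval -0.17 to 1.38; exact permutation p = 0.7), and -0.046 without MitoPark 3. It passed the cutoffs without MitoPark 1 (0.84) or MitoPark 2 (0.87), fits in which MitoPark 3 weighs more. Kcnq1, the potassium channel gene around it, had 0 to 4 counts per mouse, so it was not tested. Cdkn1c, a cell cycle inhibitor in the same imprinted domain, had the highest log2 fold change of the coding neighbours, 0.28 ± 0.26 (SE), with 4.68, 5.13 and 6.55 CPM in the controls against 5.61, 5.46 and 8.84 CPM.

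Peg13 was the steadiest of the paternally expressed RNAs outside MitoPark 3. The controls had 438, 425 and 439.7 CPM of it, and the MitoParks 432, 445 and 337 CPM. In 5 mice it stayed between 425 and 445 CPM, and MitoPark 3 was lower. Its log2 fold change was -0.10 ± 0.13 (SE; 95% interval -0.39 to 0.19; exact permutation p = 0.7) and 0.013 without MitoPark 3. Trappc9, a trafficking complex subunit within whose intron Peg13 lies, had 84.1, 76.1 and 78.6 CPM in the controls against 84.5, 71.2 and 72.6 CPM (log2 fold change -0.065 ± 0.11, SE). The setting used for strand in counting is not given in the sources used here, and Peg13 and Trappc9 run on the same strand, so unspliced Trappc9 reads over Peg13 could not be separated from it. Kcnk9, the potassium channel gene next to this domain, had the lowest log2 fold change of the coding neighbours, -0.31 ± 0.23 (SE), and was at 6.58 CPM in MitoPark 3 against 10.2 to 13.9 CPM elsewhere.

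**Figure D2:**
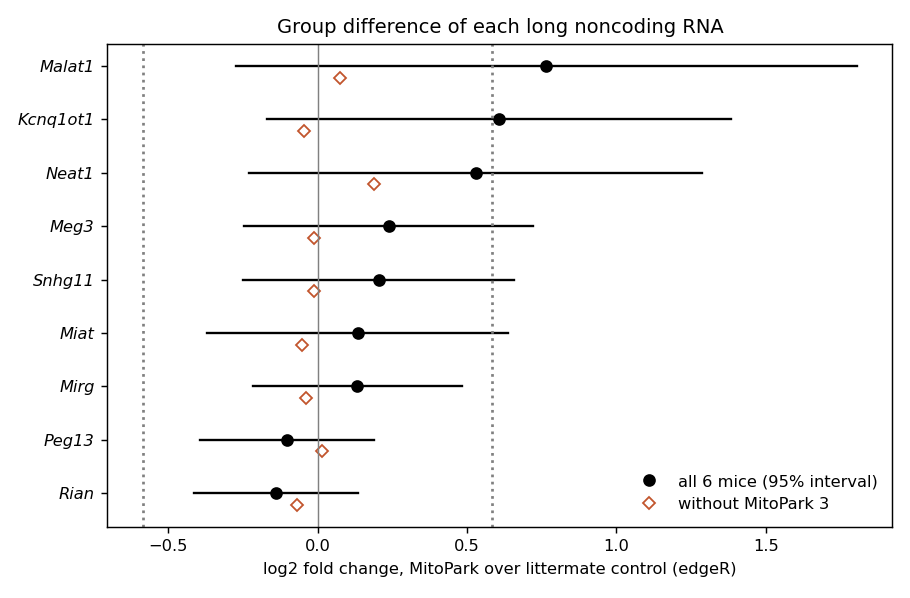
Log2 fold change of each RNA, MitoPark over littermate control (x axis, from edgeR), with its 95% interval (black, 6 mice) and the value without MitoPark 3 (open diamonds). Dotted lines mark a fold change of 1.5 in either direction; every interval holds 0, and without MitoPark 3 the values lie between -0.071 for Rian and 0.19 for Neat1.

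As a share of all counts, the 9 RNAs together took 1.34%, 1.21% and 1.22% of the controls' libraries, and 1.36%, 1.15% and 2.13% of the MitoParks' libraries. Only MitoPark 3 was outside the range of 1.15% to 1.36%. The means were 1.25% ± 0.0736 and 1.55% ± 0.516 (SD, n = 3 each), which did not differ beyond the spread (exact two-sided permutation p = 0.6, where 0.1 is the smallest p that 3 mice against 3 allow). Without Malat1 in the sum, the other 8 took 1.11% ± 0.128 and 1.29% ± 0.364 (exact permutation p = 0.7).

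**Figure D3:**
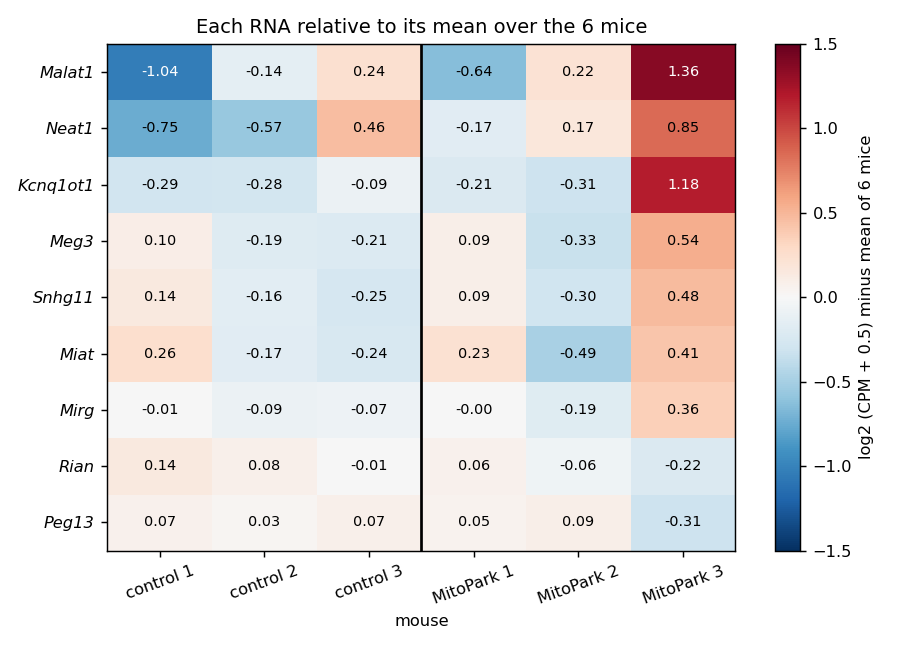
Each RNA (rows) in each mouse (columns) as log2(CPM + 0.5) minus its mean over the 6 mice, in colour and in figures. Malat1 runs from -1.04 in littermate control 1 to 1.36 in MitoPark 3 and Neat1 alike. Meg3, Snhg11, Miat, Mirg and Kcnq1ot1 are lowest in MitoPark 2, and Rian and Peg13 are lowest in MitoPark 3.

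Across the 6 mice the RNAs fell into patterns that did not follow the groups. Of 36 pairs, 13 had a Pearson correlation of log2(CPM + 0.5) with an exact permutation p below 0.05, and none had an adjusted p below 0.05 over the 36 pairs. The smallest adjusted p was 0.05, and 3 pairs passed under Spearman's rho. These were the pairs among Meg3, Snhg11 and Miat, whose order of mice was identical (rho = 1 for each, exact permutation p = 0.00278, adjusted p = 0.0333). For Meg3 and Snhg11 Pearson's r was 0.99 (exact permutation p = 0.00139, adjusted p = 0.05), and it was 0.98 without MitoParks 2 and 3, the mice farthest from the median of Meg3. For Meg3 and Miat r was 0.93 (exact permutation p = 0.00972, adjusted p = 0.0583), and 1.00 without those mice.

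Malat1 and Neat1 went together with r = 0.89 (exact permutation p = 0.0139, adjusted p = 0.0625; rho = 0.94, p = 0.0167, adjusted p = 0.12), and r was 0.60 without littermate control 1 and MitoPark 3. Malat1 and Rian went in opposite directions, with r = -0.96 (exact permutation p = 0.00556, adjusted p = 0.05; rho = -0.89, p = 0.0333, adjusted p = 0.133) and r = -0.76 without the same mice. There was 1.23 Rian count per Malat1 count in littermate control 1 and 0.182 in MitoPark 3. With Meg3, Snhg11 and Miat, Malat1 had r = 0.36, 0.29 and 0.0047 over all mice. Without MitoPark 3 these were -0.94, -0.98 and -0.94, so they too rest on that mouse. Meg3 and Mirg, from 1 locus, had r = 0.96 (exact permutation p = 0.00556, adjusted p = 0.05) and rho = 0.89 (p = 0.0333, adjusted p = 0.133). Without MitoParks 2 and 3 their r was 0.98. Rian and Meg3, from the same locus, had r = -0.45 over all mice (exact permutation p = 0.394, adjusted p = 0.507) and rho = 0.086 (p = 0.919). Their r was 0.66 without MitoParks 2 and 3 and 0.82 without MitoPark 3 alone, so their relation rests on those mice. Kcnq1ot1 and Peg13 had r = -0.98, but with an exact permutation p of 0.0847 (adjusted p = 0.169; rho = -0.60, p = 0.242) and r = 0.014 without MitoPark 3, on which the relation rests.

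Of 72 relations of these RNAs with 8 marker lists, 6 had an unadjusted exact permutation p below 0.05, and none had an adjusted p below 0.05, the smallest being 0.40. The summed level of 6 oligodendrocyte markers (Mbp, Mobp, Mog, Mag, Cnp and Cldn11, all detected, none called) came to 4146, 6329 and 11451 CPM in the controls, with the MitoParks at 6093, 7599.8 and 9965 CPM. Neat1 had r = 0.90 with it (exact permutation p = 0.0181; rho = 0.89, p = 0.0333) and Malat1 r = 0.83 (exact permutation p = 0.0333; rho = 0.94, p = 0.0167). Without littermate control 1 and MitoPark 3, r was 0.86 for Neat1 and 0.75 for Malat1. This was not particular to oligodendrocyte markers. Without the same mice, Neat1 had r = 0.98 with the endothelial, 0.89 with the microglia and 0.86 with the astrocyte markers. Malat1 then had r = 0.96 with the neuron markers, against 0.029 over all 6 mice. Choroid plexus and red cell markers then had r below 0 with both RNAs. The summed level of 9 neuron markers ran the other way from the Meg3 group, with r = -0.85 for Meg3 (exact permutation p = 0.025), -0.90 for Snhg11 (p = 0.0236) and -0.90 for Miat (p = 0.0333). Neat1 also had r = 0.84 with 7 microglia markers (exact permutation p = 0.0125), whose sum was lowest, at 251 CPM, in littermate control 1. In these sums the most abundant markers weigh most. Snap25 had 1547 to 2582 CPM among the neuron markers, and Mbp 3017 to 8775 CPM among the oligodendrocyte markers. Correlations with single markers were not tested, and neither was the part of the cell types in the results. Over all 6 mice the correlations join both groups, and they share library scaling.

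**Figure D4:**
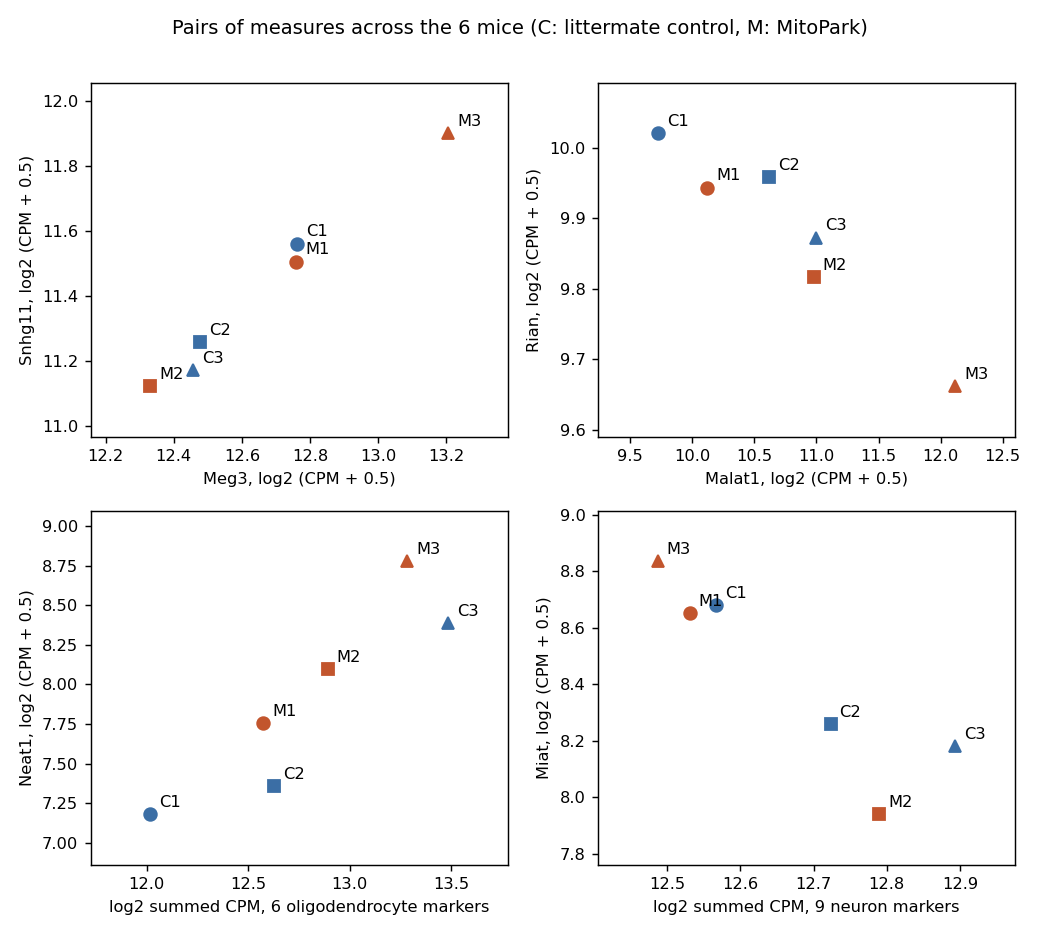
Pairs of measures in the 6 mice, each axis on the log2 scale of CPM (C, littermate control; M, MitoPark; the number is the mouse). Snhg11 rises with Meg3 (r = 0.99), Rian falls with Malat1 (r = -0.96), Neat1 rises with the summed oligodendrocyte markers (r = 0.90) and Miat falls with the summed neuron markers (r = -0.90), with mice of both groups mixed along each line.

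The genes most alike in pattern were sought among the 10440 genes with a mean of 10 CPM or more, by Pearson's r of log2(CPM + 0.5) over the 6 mice, as a description. For Malat1 they were Taf15 (r = 0.99), Son (0.99) and Nfkbib (0.98). For Meg3 they were Snapc4, Pisd and Snhg11 (each 0.99), and for Snhg11 they were Meg3, Zfp598 and Pkd1 (each 0.99). For Neat1 they were Cipc, Rbms2 and Zfp280c (each 0.99), and for Miat Wdr81 (1.00), Stx16 and Mnt (each 0.99). For Mirg they were H2-Q4, Mbd6 and Safb2 (each 0.99), for Rian Tmem185b (1.00), Dbndd1 and Ncs1 (each 0.99), for Kcnq1ot1 Gm17644, Gm17821 and Vmn1r58 (each 1.00), and for Peg13 Pi4ka, Rnf14 and Ctnna2 (each 1.00). The points are 6 mice, and the levels share the library scaling. Each named gene was picked as one of the highest of 10439 correlations for its RNA. With so few points, values this high can arise among so many genes without any link. How high they would be without a link was not tested, so no shared function is read from them.

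Promoters are shown for Meg3 and Snhg11, which shared a pattern across mice, and for Malat1 and Kcnq1ot1, which stood highest in MitoPark 3 relative to the other mice. The sequences are RefSeq's (GRCm38.p6), 250 bases before to 50 after the start, and were found for 7 of the 9 RNAs. Capitals mark the CRE core TGACG, the CCAAT box CCAAT and the TATA box TATAAA, searched on both strands.
Meg3, chr12:109540746-109541045, plus strand: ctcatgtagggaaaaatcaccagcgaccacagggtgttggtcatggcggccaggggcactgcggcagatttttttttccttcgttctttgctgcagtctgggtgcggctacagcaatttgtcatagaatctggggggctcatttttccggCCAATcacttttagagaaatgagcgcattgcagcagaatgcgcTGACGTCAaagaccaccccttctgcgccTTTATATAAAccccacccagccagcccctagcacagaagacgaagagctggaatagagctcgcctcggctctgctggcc
Snhg11, chr2:158375463-158375762, plus strand: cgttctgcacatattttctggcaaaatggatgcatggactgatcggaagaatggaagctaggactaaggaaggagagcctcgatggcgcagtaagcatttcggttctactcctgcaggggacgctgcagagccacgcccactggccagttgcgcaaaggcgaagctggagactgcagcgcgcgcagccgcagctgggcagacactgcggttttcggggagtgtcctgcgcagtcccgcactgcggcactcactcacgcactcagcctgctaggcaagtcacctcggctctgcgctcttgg
Malat1, chr19:5802623-5802922, minus strand: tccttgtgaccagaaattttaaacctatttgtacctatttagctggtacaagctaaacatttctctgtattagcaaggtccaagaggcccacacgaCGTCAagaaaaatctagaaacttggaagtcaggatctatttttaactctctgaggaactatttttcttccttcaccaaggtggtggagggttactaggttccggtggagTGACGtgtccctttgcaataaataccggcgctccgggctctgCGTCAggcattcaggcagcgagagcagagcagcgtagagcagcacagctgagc
Kcnq1ot1, chr7:143296498-143296797, minus strand: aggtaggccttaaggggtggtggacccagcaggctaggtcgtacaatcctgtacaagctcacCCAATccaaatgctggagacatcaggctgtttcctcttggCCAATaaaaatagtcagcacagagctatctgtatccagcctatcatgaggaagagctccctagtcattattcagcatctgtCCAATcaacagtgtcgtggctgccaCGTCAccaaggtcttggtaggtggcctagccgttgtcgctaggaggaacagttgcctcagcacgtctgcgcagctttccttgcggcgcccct
The Meg3 window holds a full CRE, TGACGTCA, in which 2 cores overlap, as 1.79% of 32851 promoters do, with a TATA box read on both strands in overlapping letters and 1 CCAAT box. CRE cores are found 3 times in the Malat1 window and once in that of Kcnq1ot1, and 20.8% of promoters hold at least 1. CCAAT boxes are found 3 times in the Kcnq1ot1 window, and 37.4% of promoters hold at least 1. TATA boxes are held by 13.6%. The shares of promoters that hold 3 or more of a motif were not computed. The Snhg11 window holds none of these letters, and neither does that of Miat, which is not shown. Whether these letters bear on the levels was not tested.

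Other genes of the same kinds gave few departures between groups. Of 14 coding neighbours of the imprinted RNAs 9 were tested, 0 were called and the median log2 fold change was -0.065. Of 33 other imprinted genes 30 were tested and 0 were called, with a median of -0.025 and extremes at Mkrn3, a maternally silenced zinc finger gene (0.73 ± 0.47, SE), and Snurf (-0.59 ± 0.39). Mkrn3 was near the filter at 0.557 to 1.52 CPM, and Snurf shares exons with Snrpn, so its counts are uncertain. Of 21 other small nucleolar RNA hosts 19 were tested and 0 were called, 15 had a log2 fold change above 0 and the median was 0.15. Dancr had the highest, 0.58 ± 0.28 (SE), at 2.05 to 2.67 CPM in littermate controls and 3.05 to 4.45 CPM in MitoParks, and Gm11974 the lowest, -0.49 ± 0.43 (SE). The groups did not overlap in 2 of the 19, against 4.71% of all genes tested. They were Dancr and 2410004N09Rik (0.35 ± 0.22, SE, with 3.51 to 3.81 CPM against 4.27 to 4.95 CPM), both below 5 CPM in every mouse. The latter was named after its values were seen. Of 20 other long noncoding RNAs 15 were tested and 0 were called, with extremes at Jpx, an activator of Xist (0.35 ± 0.23, SE), and 1700020I14Rik (-0.37 ± 0.32), which reached -0.91 and passed the cutoffs without MitoPark 2.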

How the data were processed

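Poly(A)-selected RNA from the SN of 3 MitoParks and 3 littermate controls was sequenced with strand-marked libraries. Per the submitters' processing notes and the methods, the authors mapped reads to UCSC transcripts with Bowtie2 2.1.0 and deposited expected counts per gene from RSEM 1.2.15, without normalization; the notes name the human build hg38, while the symbols are mouse, and a second methods paragraph describes RPKM values not used here. A total of 0 columns belonged to no sample. From 11.9% to 14.1% of values per mouse were not whole, including those of Malat1, Meg3, Snhg11 and Kcnq1ot1, which RSEM gives where reads match more than 1 entry.

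Expected counts were rounded, genes were kept where either group's mean CPM was above 1, and edgeR 4.0.16 (R 4.3.3) fitted a quasi-likelihood model of group after TMM normalization, with Benjamini-Hochberg adjustment over all genes tested. The unadjusted p cutoff of 0.05 and fold change cutoff of 1.5 follow the study's methods. Correlations and the summed share were tested by exact two-sided permutation (numpy 2.4.6). The procedure was tested on simulated data. Mice were not identical libraries (chi-square per degree of freedom 9.68 or more). Intervals and counting errors cover the spread between mice or counting only, and reads carry no molecular identifiers.

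The RNAs and gene lists were chosen with earlier results of these data known. The text names all 9 RNAs, Tfam, the called genes of every list, from each list other than the cell type markers the highest and lowest log2 fold change, and for each RNA the 3 genes most alike; other genes are named as neighbours or markers, after their values were seen. Older symbols were matched through RefSeq synonyms, and some listed genes are not reported here and were left out of the lists. Relations with marker sums, ratios inside libraries and correlations on total counts were added after the data were seen. Alternatives were RLE, upper quartile and total count scaling, 2 other filters, DESeq2 1.42.0, limma-voom (limma 3.58.1), robust dispersion, counts left unrounded, a block for the replicate number, and fits without each mouse. The labels do not say that mice came from separate litters, so p-values measure the spread between these samples.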

Additional observations from a re-analysis of the deposited data

How the results depend on the processing

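Of 144 alternative values of the log2 fold changes of the 9 RNAs, 132 kept their direction and their side of the cutoffs. The sign turned for 6 RNAs without MitoPark 3. Over the fits that left out 1 mouse, the log2 fold change ran from -0.012 to 0.43 for Meg3, from -0.014 to 0.38 for Snhg11, from -0.052 to 0.36 for Miat, from -0.039 to 0.26 for Mirg, from -0.046 to 0.87 for Kcnq1ot1 and from -0.17 to 0.013 for Peg13, with the value of the other sign each time from the fit without MitoPark 3. The number of the 9 RNAs past both cutoffs, 0 in the fit reported, was 0 under every other normalization, filter and tool, and between 0 and 2 when 1 mouse was left out. The number of all genes called, 84, became 176 with no filter on low counts and 31 with a filter at a mean CPM of 5, and lay between 62 (without MitoPark 3) and 219 (without littermate control 3) when 1 mouse was left out. The number of the 36 correlations with an adjusted p below 0.05, 0 on TMM values, was 3 on total counts, an alternative added after the data were seen. The difference in summed share, 0.293 percentage points, lay between 0.00112 and 0.489 when 1 mouse was left out, the lowest without MitoPark 3.

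With the replicate number as a block (replicate block), 1 of the 9 RNAs was called, Malat1, with a log2 fold change of 0.63, and 126 of all genes were called. Malat1 and Neat1, the latter at 0.57 and so under the fold cutoff, had an unadjusted p below 0.05 there, and 1 of all genes had an adjusted p below 0.05. Deviations of same-numbered mice correlated at 0.35, -0.069 and 0.28, and 4 of 6 mice correlated best with their own number. Genes with an unadjusted p below 0.05 numbered 323 with the block and 161 in the fit reported. Whether the numbers pair the mice cannot be told from these values. With 3 mice a group the fits leave wide intervals, and single mice decide the calls of Malat1, Neat1 and Kcnq1ot1; the cause was not tested.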
